A study of Mus musculus with 9 samples.

Results

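Aminoacyl-tRNA synthetases are the enzymes that join each amino acid to its transfer RNAs, and their genes were described here in mouse nuclear-transfer embryonic stem cells (ntESCs) carrying different doses of Terc, which encodes the RNA component of telomerase. The members were taken by name: every gene whose symbol in the array annotation is an amino acid letter followed by ars, with or without a final 1 or 2, together with Eprs, Farsa, Farsb, Fars2, Ears2 and Tarsl2. This gave 34 genes, 20 of them cytosolic and 14 mitochondrial, among 18666 features tested, which were 16110 named genes and the probes without a gene name. The 34 genes had 55 probes, and each gene was read from its probe with the highest mean. Dars, Cars2 and Tars2 were among the synthetase genes not analysed here.

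An ntESC line is a pluripotent line derived from an embryo in which the nucleus of a somatic cell replaced that of the egg. The 9 samples were 3 Terc-/- samples with no copy of the gene, 3 Terc+/- samples with 1 copy and 3 Terc+/+ samples with both copies, each hybridised to its own bead array, and the comparisons ask how expression differed with the Terc dose. All were of strain C57BL/6 and were grown without serum, with LIF, on mouse embryonic fibroblasts stopped by mitomycin-C, which were removed before RNA extraction. The labels call the samples biological repeats but do not say whether they were separate lines or cultures of 1 line, so p-values measure the spread between these samples, which may be partly technical. No probe carried the name of Terc, and the genotypes rest on the labels.

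Cells keep separate synthetases for the cytosol and for the mitochondrion, although Gars and Kars each encode the enzyme of both compartments. Several cytosolic enzymes are held together in the multisynthetase complex by the scaffold proteins encoded by Aimp1, Aimp2 and Eef1e1. When a transfer RNA stays uncharged, the kinase GCN2 (Eif2ak4) phosphorylates the initiation factor eIF2, the transcription factor ATF4 is made, and many cytosolic synthetase genes are among the genes it is known to induce, together with amino acid transporters and biosynthetic enzymes. The mitochondrial enzymes are encoded in the nucleus and charge the transfer RNAs that the mitochondrial genome supplies.

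The stretches that follow are shown because they hold the letters TGATGNAA, the core of the element that ATF4 binds with C/EBP partners, on either strand. They come from RefSeq windows of assembly GRCm38.p6 that run from 250 bases before to 50 bases after a gene's start, 300 bases in all, and are written 5′ to 3′ on the gene's strand with the element in capitals. A window was found for 25 of the 34 genes. The element was in 5 of 13 cytosolic genes with a window, all 5 of them among the 8 genes that were listed as ATF4-linked and had a window, and in 0 of 12 mitochondrial genes, against 3.97% of all 32851 windows. The stretches of 58 bases, or 179 bases where Aars holds 2 copies, were chosen after the element was found, and the fifth gene, Gars, is shown whole further on.
Aars (chr8:111033705-111033883, plus strand): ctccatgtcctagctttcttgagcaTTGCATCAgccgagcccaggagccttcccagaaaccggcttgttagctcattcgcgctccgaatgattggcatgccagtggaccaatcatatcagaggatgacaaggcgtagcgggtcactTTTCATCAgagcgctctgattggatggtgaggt
Iars (chr13:49682112-49682169, plus strand): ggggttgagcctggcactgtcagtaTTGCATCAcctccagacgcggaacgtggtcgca
Tars (chr15:11399641-11399698, minus strand): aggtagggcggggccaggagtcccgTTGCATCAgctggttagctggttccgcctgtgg
Yars (chr4:129189881-129189938, plus strand): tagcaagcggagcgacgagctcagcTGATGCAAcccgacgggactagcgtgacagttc

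The next windows are shown whole because they belong to the genes described array by array with the smallest p-values that had a window and whose letters matched either motif. Capitals mark GCGCANGC, the core of the element bound by NRF1, a regulator of many mitochondrial genes, in Rars2 and Sars, and TGATGNAA in Gars. GCGCANGC was found on either strand in 5 of 13 cytosolic genes (Eprs, Farsb, Kars, Sars and Tars) and in 5 of 12 mitochondrial genes (Iars2, Mars2, Rars2, Vars2 and Wars2), against 9.95% of all windows. These matches are letters in a window and show neither binding nor use of a site.
Rars2 (chr4:34614707-34615006, plus strand): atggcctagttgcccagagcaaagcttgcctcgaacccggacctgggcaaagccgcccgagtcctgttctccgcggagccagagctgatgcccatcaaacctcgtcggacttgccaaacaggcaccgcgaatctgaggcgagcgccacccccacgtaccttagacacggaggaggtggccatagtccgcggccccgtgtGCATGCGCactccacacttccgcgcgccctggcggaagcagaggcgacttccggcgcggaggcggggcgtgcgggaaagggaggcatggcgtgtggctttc
Sars (chr3:108445210-108445509, minus strand): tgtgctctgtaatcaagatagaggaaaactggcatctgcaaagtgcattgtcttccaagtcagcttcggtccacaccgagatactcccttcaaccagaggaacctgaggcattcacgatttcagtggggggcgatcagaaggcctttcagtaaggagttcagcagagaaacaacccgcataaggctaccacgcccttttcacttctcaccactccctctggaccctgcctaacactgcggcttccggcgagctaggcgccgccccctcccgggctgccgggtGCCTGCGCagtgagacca
Gars (chr6:55037751-55038050, plus strand): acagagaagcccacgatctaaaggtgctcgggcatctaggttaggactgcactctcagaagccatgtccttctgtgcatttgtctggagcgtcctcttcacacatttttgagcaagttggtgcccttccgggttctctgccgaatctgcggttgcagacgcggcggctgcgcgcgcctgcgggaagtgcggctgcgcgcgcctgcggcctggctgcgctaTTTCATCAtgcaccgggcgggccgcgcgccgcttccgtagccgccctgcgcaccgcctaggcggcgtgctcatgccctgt

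The arrays were alike, with correlations between 0.950 and 0.995 for all pairs over the 25697 probes, but 1 array stood apart. Terc+/+ replicate 3 had a mean correlation of 0.963 with the other arrays, whereas the other 8 arrays lay between 0.978 and 0.986. Of 32 measured embryonic fibroblast markers, 19 had their highest value in Terc-/- replicate 3 and 26 their lowest in Terc+/+ replicate 3. The summed signal of these markers ranged from 22401 to 68278 in Terc-/-, from 12543 to 54297 in Terc+/- and from 8079 to 56516 in Terc+/+ samples. Embryonic stem cell markers summed to between 51551 and 58238 in Terc-/-, 53032 and 61766 in Terc+/- and 45939 and 62388 in Terc+/+ samples, so the pluripotency genes were present in every sample. Many of the values against Terc+/+ are therefore also given without Terc+/+ replicate 3. In bulk samples, fewer cells of a type and less RNA per cell cannot be told apart.

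**Figure D1:**
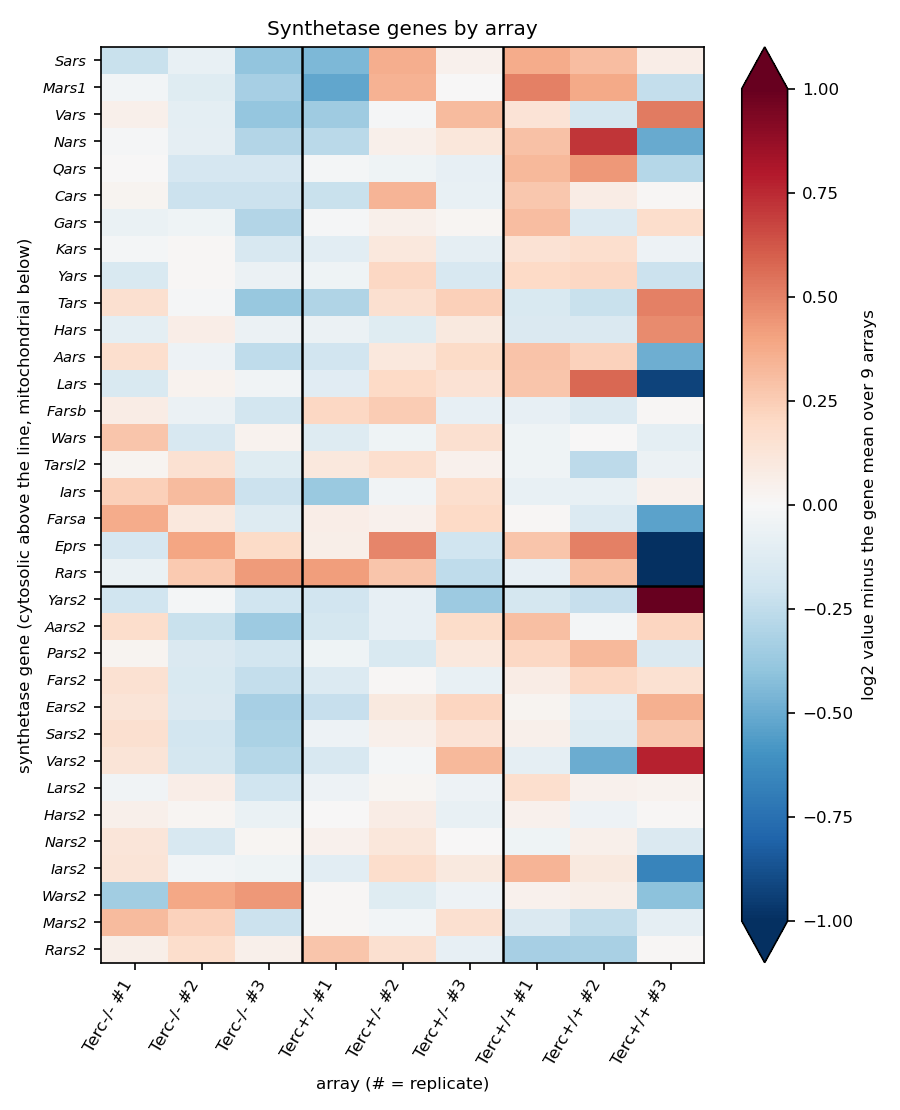
Log2 value of each of the 34 synthetase genes on each array (columns, Terc-/- left, Terc+/+ right), minus the gene's mean over the 9 arrays; red is above and blue below that mean, and the colour scale ends at -1 and 1. Terc+/+ replicate 3 holds the darkest cells, with Eprs, Rars and Lars lowest and Yars2 highest there.

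The 34 synthetase genes had 30 members with a mean log2 value above 6, which 9321 of all 18666 features reached. Over all of them no gene passed an adjusted p of 0.05 in any of the 3 comparisons (0 of 34 each, limma with Benjamini-Hochberg adjustment over all features). The same fit called 10 features of 18666 in Terc-/- against Terc+/+ (0.0536%), and in Terc+/- against Terc+/+ and Terc-/- against Terc+/- it called 0 (0% each). At an unadjusted p under 0.05, 1 synthetase was higher and 1 lower in Terc-/- than in Terc+/+, beside 5.3% of all features higher and 5.31% lower. The counts for Terc+/- against Terc+/+ were 2 higher and 0 lower at that p, beside 4.73% and 3.86% of all features. Between Terc-/- and Terc+/-, 0 synthetases reached it, beside 0.814% higher and 0.943% lower. The shares of synthetases at these p-values were therefore near those of all features.

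With all arrays, most of the family had a lower mean in each comparison, without any member passing the adjusted threshold. The count was 22 of 34 genes lower in Terc-/- against Terc+/+, with a median log2 difference of -0.13. Of all features 48.5% were lower, with a median of 0.0048. In Terc+/- against Terc+/+ the count was 21 of 34 with a median of -0.029, beside 48.7% and 0.0042 over all features. Between Terc-/- and Terc+/-, 26 of 34 were lower in Terc-/- with a median of -0.064, beside 51.8% and -0.0043 over all features. Leaving out single arrays gave 19 to 24, 15 to 21 and 20 to 28 lower genes in that order. The count of 15 came without Terc+/- replicate 1. The 3 comparisons share arrays pairwise, so these counts are not separate observations.

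Rars2 encodes the mitochondrial arginyl-tRNA synthetase, and it was the synthetase with the smallest p in both comparisons against Terc+/+. Its log2 values were 9.66, 9.78 and 9.66 in Terc-/-, 9.89, 9.77 and 9.53 in Terc+/- and 9.27, 9.29 and 9.62 in Terc+/+ samples. All 3 Terc-/- arrays lay above all 3 Terc+/+ arrays, by a narrow margin at Terc+/+ replicate 3, while 1 Terc+/- array lay below that replicate. The log2 difference was 0.31 (SE 0.12, limma adjusted p = 0.426) for Terc-/- against Terc+/+ and 0.34 (SE 0.12, limma adjusted p = 0.485) for Terc+/- against Terc+/+. The other 3 Rars2 probes gave 0.33, 0.17 and 0.066 for Terc-/- against Terc+/+, the last from a probe with a mean of 5.35 near the lowest value on the arrays (5.11). Terc-/- and Terc+/- samples differed by -0.025 (95% confidence interval -0.31 to 0.26).

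Sars encodes the cytosolic seryl-tRNA synthetase, and it was the cytosolic gene with the smallest p in Terc-/- against Terc+/+. Its log2 values were 9.59, 9.73 and 9.41 in Terc-/-, 9.36, 10.17 and 9.85 in Terc+/- and 10.18, 10.11 and 9.87 in Terc+/+ samples. The Terc-/- arrays all lay below the Terc+/+ arrays, and the Terc+/- arrays spread across both. The mean was 9.58 ± 0.16 in Terc-/-, 9.79 ± 0.41 in Terc+/- and 10.05 ± 0.16 in Terc+/+ samples (SD, n = 3 each). The difference of Terc-/- from Terc+/+ was -0.48 (SE 0.20, limma adjusted p = 0.450), and a second, dimmer Sars probe gave -0.58 (SE 0.17). For Terc+/- against Terc+/+ the first probe gave -0.26 (SE 0.20) and the second -0.52 (SE 0.17). With the fibroblast marker score of each array in the fit, 2 synthetases were higher and 0 lower in Terc-/- than in Terc+/+ at an unadjusted p under 0.05. They were Mars2 (0.33, limma adjusted p = 0.251) and Rars2 (0.32, limma adjusted p = 0.321). Of all 18666 features, 1430 were higher and 1183 lower at that p. Sars had a difference of -0.42 in that fit.

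Rars2 and Sars were also the genes whose arrays did not overlap between Terc-/- and Terc+/+. That is 1 of 34 genes with all Terc-/- arrays higher and 1 of 34 with all lower, beside 7.49% and 7.43% of all features. For Terc+/- against Terc+/+, Farsa, Tarsl2 and Mars2 had all 3 arrays higher and Fars2 and Lars2 all lower, beside 7.29% and 5.3% of all features. Set against Terc+/- arrays, Terc-/- arrays were all higher for 0 genes and all lower for 1 gene, Gars, beside 3.76% and 3.94%.

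**Figure D2:**
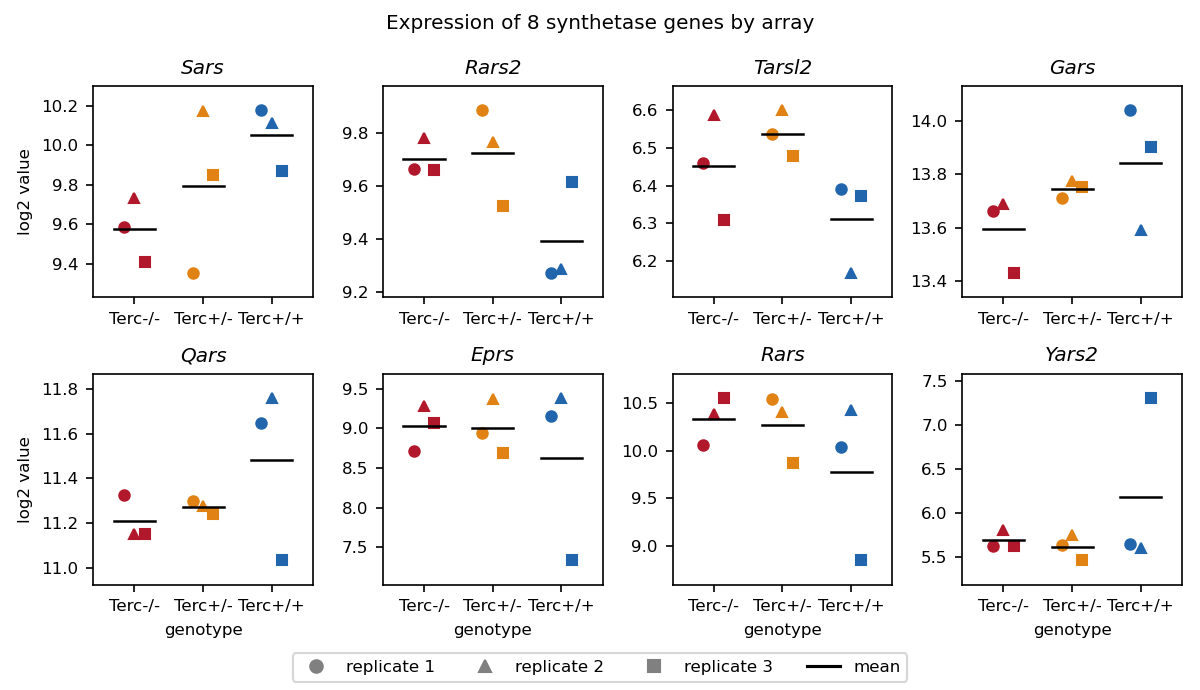
Log2 value of 8 synthetase genes in each sample, by genotype; symbols mark the replicate number and bars the mean of 3 arrays, and each panel has its own axis. Sars and Rars2 did not overlap between Terc-/- and Terc+/+, and for Qars, Eprs, Rars and Yars2 the square of Terc+/+ replicate 3 lies far from the 2 other Terc+/+ symbols.

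Tarsl2, which encodes a second cytosolic threonyl-tRNA synthetase, was the other gene at an unadjusted p under 0.05 in Terc+/- against Terc+/+. Its log2 values were 6.46, 6.59 and 6.31 in Terc-/-, 6.54, 6.60 and 6.48 in Terc+/- and 6.39, 6.17 and 6.37 in Terc+/+ samples. The Terc+/- arrays lay above the Terc+/+ arrays with a difference of 0.23 (SE 0.09, limma adjusted p = 0.564), and the Terc-/- arrays overlapped both. Its second probe gave 0.14 (SE 0.07) in the same comparison. Tars, the main cytosolic threonyl enzyme, gave -0.0085 (SE 0.24) with all arrays and 0.22 (SE 0.20) without Terc+/+ replicate 3.

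The cytosolic enzymes as a list leaned lower, by small amounts. Set against Terc+/+, 13 of 20 were lower and 7 higher in Terc-/-, with a median of -0.10 and a range of -0.48 to 0.56. The values for Mars1, Vars and Nars, which charge methionine, valine and asparagine transfer RNAs, were -0.37 (SE 0.25), -0.31 (SE 0.22) and -0.30 (SE 0.28). Those at the other end were Farsa, the catalytic subunit of the phenylalanyl enzyme, at 0.34 (SE 0.17), Eprs, which joins glutamyl and prolyl activities in 1 protein, at 0.40 (SE 0.50), and Rars at 0.56 (SE 0.38). All of these intervals include 0. The other Vars probes gave 0.18 (SE 0.23) and -0.34 (SE 0.21) in the same comparison. The ends of the list depended on Terc+/+ replicate 3: without it Mars1 gave -0.60, Nars -0.63, Vars -0.13, Farsa 0.18, Eprs -0.25 and Rars 0.10. The counts were 12 of 20 in Terc+/- against Terc+/+ with a median of -0.053, and in Terc-/- against Terc+/-, 15 of 20 with a median of -0.084.

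The genes linked to ATF4 and the rest of the cytosolic list can be set side by side. Of 13 ATF4-linked synthetases, 10 had a lower Terc-/- than Terc+/+ mean, with a median of -0.13. Of the 7 cytosolic genes outside that list, 3 were lower, with a median of 0.013. The 7 measured enzymes of the multisynthetase complex had 4 lower members and a median of -0.024, and the 13 cytosolic genes outside the complex had 9 lower and a median of -0.12. Without Terc+/+ replicate 3 the order of these 2 medians turned, with 5 of 7 complex enzymes lower (median -0.25) and 7 of 13 lower outside the complex (median -0.13). In that fit the ATF4-linked median was -0.27 and that of the other 7 cytosolic genes 0.10. The difference between these lists was not tested. Among the 5 genes with the ATF4 element shown above, Iars gave 0.15 (SE 0.17) from its brightest probe, but its other 3 probes gave -0.34, -0.21 and -0.044. The other 4 genes lay between -0.25 for Gars and -0.056 for Aars with all arrays, and without Terc+/+ replicate 3 Aars gave -0.30, Yars -0.27 and Tars 0.11.

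Gars, the glycyl-tRNA synthetase of both compartments, gave the highest probe signal of the cytosolic list, a rank of probes rather than of transcript levels. Its log2 values were 13.66, 13.69 and 13.43 in Terc-/-, 13.71, 13.78 and 13.75 in Terc+/- and 14.04, 13.59 and 13.90 in Terc+/+ samples. All Terc-/- arrays lay below the Terc+/- arrays, whereas Terc+/+ replicate 2 lay among the Terc-/- values. The difference was -0.25 (SE 0.12, limma adjusted p = 0.536) from Terc+/+ and -0.15 (SE 0.12) from Terc+/-. Hars, the cytosolic histidyl enzyme and the dimmest probe of that list, ranged from 5.90 to 6.06 in Terc-/- and from 5.87 to 6.09 in Terc+/-, and read 5.85, 5.85 and 6.47 in Terc+/+ samples. Its sign turned with 1 array: the difference of Terc-/- from Terc+/+ was -0.089 with all arrays and 0.12 without Terc+/+ replicate 3.

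The mitochondrial enzymes also leaned lower, again without a gene past the adjusted threshold. Lower means were found for 9 of 14 in Terc-/- against Terc+/+ with a median of -0.16, in Terc+/- against Terc+/+ 9 of 14 with a median of -0.015, and in Terc-/- against Terc+/- 11 of 14 with a median of -0.033. Differences of Terc-/- from Terc+/+ ran from -0.50 (SE 0.41) for Yars2, the tyrosyl enzyme, through -0.30 (SE 0.16) for Aars2, the alanyl enzyme, and -0.23 (SE 0.13) for Pars2, the prolyl enzyme, to 0.27 (SE 0.14) for Mars2, the methionyl enzyme, and 0.31 for Rars2. The wide error of Yars2 came from 1 array, since its log2 values were 5.63, 5.81 and 5.63 in Terc-/-, 5.64, 5.75 and 5.46 in Terc+/- and 5.65, 5.60 and 7.31 in Terc+/+ samples. Without Terc+/+ replicate 3 the Yars2 difference was 0.063 (SE 0.10) and that of Pars2 -0.36 (SE 0.10). A second, dimmer Pars2 probe (mean 6.15) gave 0.015 (SE 0.071) for Terc-/- against Terc+/+ with all arrays.

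Fars2, the mitochondrial phenylalanyl enzyme with the brightest probe of its list, had log2 values of 10.25, 9.94 and 9.86 in Terc-/-, 9.96, 10.11 and 10.02 in Terc+/- and 10.17, 10.30 and 10.25 in Terc+/+ samples. The Terc+/- arrays lay below the Terc+/+ arrays and Terc-/- replicate 1 lay among the Terc+/+ values. The differences were -0.23 (SE 0.11) for Terc-/- and -0.21 (SE 0.11) for Terc+/- against Terc+/+, with limma adjusted p-values of 0.515 and 0.660. Hars2, the dimmest of the list, stayed between 5.41 and 5.56 on all arrays, close to the lowest value on any array, and its difference of -0.0018 (SE 0.067) says little about the gene.

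By catalytic fold the family splits into class I and class II enzymes. Between Terc-/- and Terc+/-, 15 of 16 class II genes and 11 of 17 class I genes had lower means in Terc-/-, with medians of -0.084 and -0.038. Of all features, 51.8% were lower in that comparison, with a median of -0.0043. Against Terc+/+ the counts were 12 of 16 and 10 of 17, with a median of -0.13 in both classes, and without Terc+/+ replicate 3 they were 10 of 16 and 9 of 17, with medians of -0.14 and -0.075. With all arrays, none of these genes passed the adjusted threshold. Without Terc+/+ replicate 3, Qars, of class I, passed it in Terc-/- against Terc+/+ (limma adjusted p = 0.0399). The list of class II genes was lowest on Terc-/- replicate 3, where its mean deviation from the 9-array means was -0.21. Without that array, or without Terc+/- replicate 2, 20 of all 34 synthetases were lower in Terc-/- than in Terc+/-, against 26 with all arrays. Those counts were not taken by class.

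**Figure D3:**
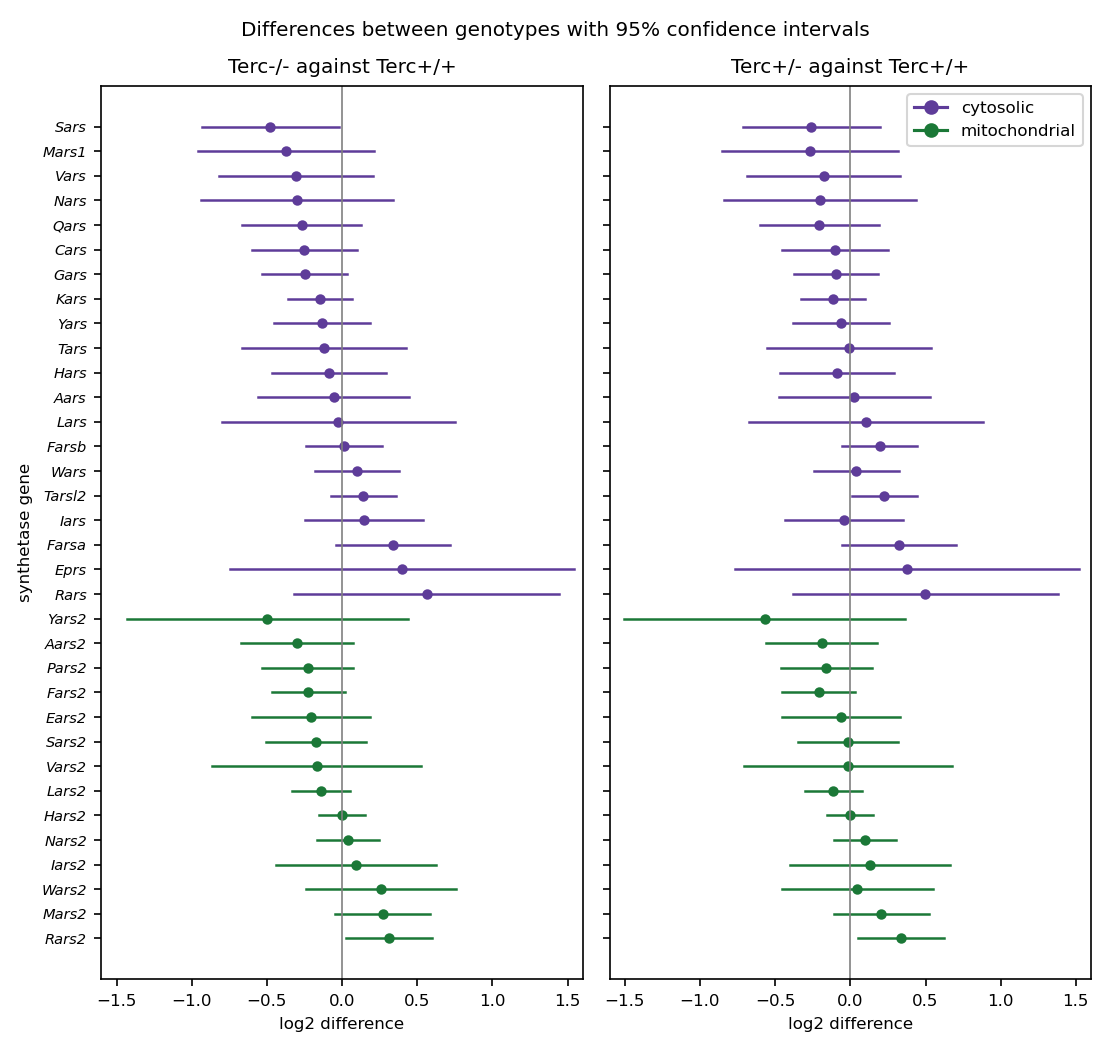
Log2 difference of each synthetase gene, Terc-/- against Terc+/+ (left) and Terc+/- against Terc+/+ (right), with 95% confidence intervals from limma; purple marks cytosolic and green mitochondrial genes. Intervals excluding 0 belong to Sars and Rars2 on the left and to Tarsl2 and Rars2 on the right, and none passed the adjusted threshold.

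Terc+/+ replicate 3 decided several of these values. It was the lowest array for 8 of 20 cytosolic genes and 4 of 7 complex enzymes, and the mean deviation of the complex enzymes was -0.61 there, against 0.19 and 0.33 in Terc+/+ replicates 1 and 2. The genes named from here to the end of the paragraph with their array values were chosen after the values were seen. Eprs read 9.16, 9.39 and 7.34, Rars 10.04, 10.43 and 8.85 and Lars, the leucyl enzyme, 10.89, 11.19 and 9.69 in Terc+/+ replicates 1, 2 and 3. Eprs ranged from 8.72 to 9.28 in Terc-/- and from 8.69 to 9.38 in Terc+/- samples, so that array lay below the other 8. A second Eprs probe and a second Rars probe gave differences of 0.40 (SE 0.39) and 0.49 (SE 0.24) for Terc-/- against Terc+/+, of the same sign as the first probes. The median SD of the cytosolic genes was 0.15 in Terc-/-, 0.20 in Terc+/- and 0.32 in Terc+/+ samples, and that of all features 0.11, 0.11 and 0.14.

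Without Terc+/+ replicate 3, 1 synthetase passed the adjusted threshold. This was Qars, the glutaminyl enzyme of the complex, whose log2 values were 11.33, 11.15 and 11.15 in Terc-/-, 11.30, 11.28 and 11.24 in Terc+/- and 11.65, 11.76 and 11.04 in Terc+/+ samples. Replicates 1 and 2 of Terc+/+ lay above all Terc-/- and Terc+/- arrays and replicate 3 below them. The difference of Terc-/- from Terc+/+ was -0.27 (SE 0.17, limma adjusted p = 0.667) with all arrays and -0.49 (SE 0.08, limma adjusted p = 0.0399) without that replicate, when 287 of all features (1.54%) were called.

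At an unadjusted p under 0.05, that smaller fit had 7 synthetases lower in Terc-/- than in Terc+/+, namely Lars, Mars1, Nars, Qars, Sars, Yars and Pars2, beside 7.27% of all features. Rars2 was the only one higher (0.42, SE 0.11; limma adjusted p = 0.109), beside 8.33% of all features. The medians were -0.22 for the cytosolic genes (12 of 20 lower), -0.27 for the 13 ATF4-linked genes (10 lower) and -0.041 for the mitochondrial genes (8 of 14 lower), beside 0.011 over all features. Without that array, 0 synthetases were called in Terc+/- against Terc+/+, beside 28 features (0.15%). Rars2 and Tarsl2 were higher and Lars, Nars, Qars and Pars2 lower at an unadjusted p under 0.05, beside 7.97% and 5.83% of all features. In this comparison the cytosolic median was -0.11 (12 of 20 lower) and that of the 7 complex enzymes -0.27. With 2 Terc+/+ arrays left, the fit assumes that Terc+/+ samples vary like those of the other genotypes.

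**Figure D4:**
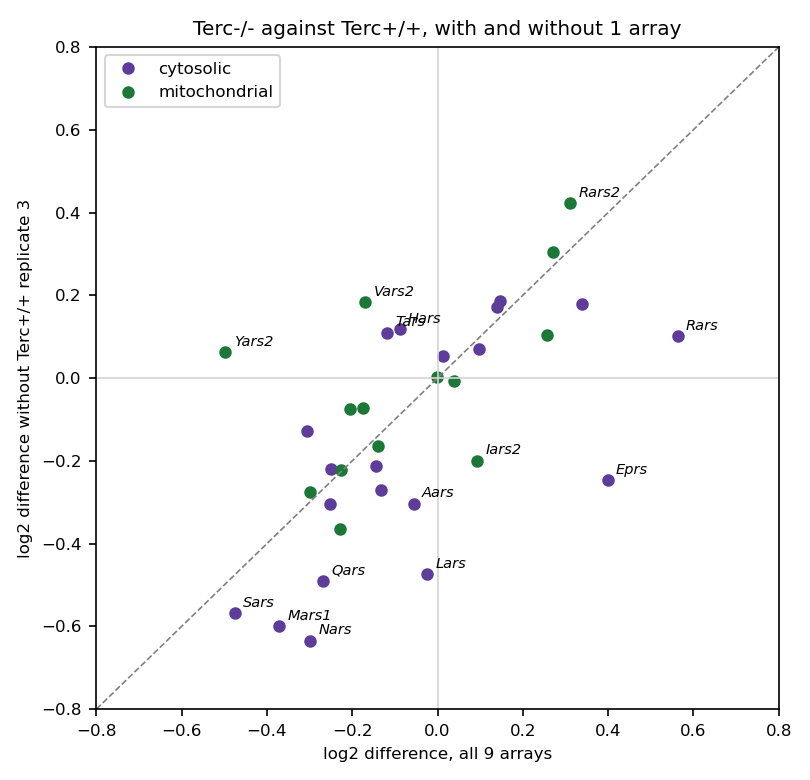
Log2 difference of Terc-/- from Terc+/+ for each synthetase gene with all 9 arrays (horizontal axis) and without Terc+/+ replicate 3 (vertical axis); the dashed line marks equal values, and names mark Sars, Rars2 and genes that moved by more than 0.2. Eprs, Iars2, Hars, Tars, Vars2 and Yars2 are among the genes whose sign turned.

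Proteins that work with the synthetases were measured for 12 of 18 listed charging partners. The Terc-/- mean was above the Terc+/+ mean for 7 of the 12, with a median of 0.10 (0.050 without Terc+/+ replicate 3). With limma 0 of them were called, and 2 were higher and 0 lower at an unadjusted p under 0.05 (5.3% and 5.31% of all features), or 2 higher and 1 lower without that array (8.33% and 7.27%). Elac2, which trims the 3′ ends of transfer RNA precursors, read 9.37, 9.08 and 8.97 in Terc-/-, 8.98, 9.06 and 8.91 in Terc+/- and 8.47, 8.55 and 8.24 in Terc+/+ samples. Both genotypes lay above all Terc+/+ arrays, with differences of 0.72 (SE 0.12, limma adjusted p = 0.0972) for Terc-/- and 0.57 (SE 0.12, limma adjusted p = 0.219) for Terc+/-. Gatc, a subunit of the mitochondrial amidotransferase that makes glutaminyl-tRNA, gave 0.49 (SE 0.13) and 0.44 (SE 0.13) in the same comparisons, and Prorsd1 0.54 (SE 0.27) and 0.42 (SE 0.27). The values of Prorsd1 rested on Terc+/+ replicate 3 and were 0.16 (SE 0.085) and 0.047 (SE 0.085) without it. The complex scaffolds gave 0.16 (SE 0.15) for Aimp1, -0.16 (SE 0.20) for Aimp2 and 0.26 (SE 0.31) for Eef1e1 in Terc-/- against Terc+/+. They too moved without that array, to 0.00075 for Aimp1, -0.37 for Aimp2 and 0.14 for Eef1e1.

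The wider amino acid response, which ATF4 drives, was lower in mean for most genes. Of 30 measured members of 31, 27 were lower in Terc-/- than in Terc+/+ with a median of -0.29, 24 were lower in Terc+/- than in Terc+/+ with a median of -0.27, and 0 were called in either with limma. At an unadjusted p under 0.05, 10 were lower and 1 higher in the first comparison (5.31% and 5.3% of all features), and 7 were lower and 0 higher in the second (3.86% and 4.73%). Atf4 read 11.98, 11.50 and 11.28 in Terc-/-, 11.53, 12.39 and 12.01 in Terc+/- and 12.61, 12.52 and 12.21 in Terc+/+ samples, and all Terc-/- arrays lay below all Terc+/+ arrays. The difference was -0.86 (SE 0.25, limma adjusted p = 0.254). The 3 smallest p-values belonged to Ddit3, which encodes the stress factor CHOP (-1.05, SE 0.19), Ddit4, an inhibitor of mTORC1 signalling (-1.42, SE 0.32), and Gpt2, a mitochondrial alanine aminotransferase (-0.99, SE 0.23). Asns, the asparagine synthetase gene and a well-known ATF4 target, gave -0.22 (SE 0.12). Without Terc+/+ replicate 3, 16 were lower and 0 higher at an unadjusted p under 0.05 in the first comparison (7.27% and 8.33% of all features), and 9 were lower and 0 higher in the second (5.83% and 7.97%). Its medians were then -0.53 and -0.41, Asns gave -0.35 (SE 0.093) in the first comparison, and Ddit3 alone of the 30 was called (-1.23, limma adjusted p = 0.0255). Whether this list differed from the ATF4-linked synthetases was not tested.

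Upstream of ATF4, 4 eIF2 kinases were measured. Eif2ak4, the sensor of uncharged transfer RNA, gave 0.083 (SE 0.092), Eif2ak3 0.50 (SE 0.31), Eif2ak2 0.49 (SE 0.27) and Eif2ak1 -0.27 (SE 0.21) in Terc-/- against Terc+/+. Eif2ak4 stayed between 5.25 and 5.58 on all arrays, close to the lowest value on any array (5.11), so its difference says little about the gene. Among genes of the Myc family, whose products are known to raise synthetase and ribosome genes, Myc gave -0.23 (SE 0.13), Mycn -0.21 (SE 0.18) and Mycl -0.12 (SE 0.10). With all arrays, 0 of these 7 genes reached an unadjusted p under 0.05, beside 5.3% of all features higher and 5.31% lower. Without Terc+/+ replicate 3, 3 of them did, beside 8.33% of all features higher and 7.27% lower. They were Eif2ak3 at 0.89 (SE 0.16, limma adjusted p = 0.0501), Eif2ak1 at -0.51 (SE 0.15, limma adjusted p = 0.136) and Myc at -0.32 (SE 0.13, limma adjusted p = 0.294). In that fit Eif2ak4 gave 0.16, Eif2ak2 0.27, Mycn 0.0046 and Mycl -0.040.

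Beside these lists, the fibroblast markers varied between single samples more than the synthetases did. Their mean deviation was -0.18, 0.099 and 1.23 in Terc-/- replicates 1, 2 and 3, 0.90, -0.76 and -0.86 in Terc+/- replicates 1, 2 and 3, and -0.089, 0.96 and -1.30 in Terc+/+ replicates 1, 2 and 3. Terc-/- replicate 3, the array with the highest fibroblast score, was the lowest array for 11 of 34 synthetases, 5 cytosolic and 6 mitochondrial. The array with the lowest fibroblast score, Terc+/+ replicate 3, was the lowest for another 10. With the fibroblast score in the fit, 12 of 20 cytosolic genes had a lower mean in Terc-/- than in Terc+/+ with a median of -0.11, and 7 of 14 mitochondrial genes with a median of -0.038. Other single arrays moved the small medians as well. Without Terc-/- replicate 3 the medians of Terc-/- against Terc+/+ were -0.053 for the cytosolic and -0.070 for the mitochondrial genes, and without Terc+/+ replicate 2 the cytosolic median was -0.043. Without Terc+/- replicate 1 the medians of Terc+/- against Terc+/+ turned to 0.060 for the cytosolic and 0.024 for the mitochondrial genes. Beyond these fits, the part that fibroblast RNA had in these values was not tested.

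**Figure D5:**
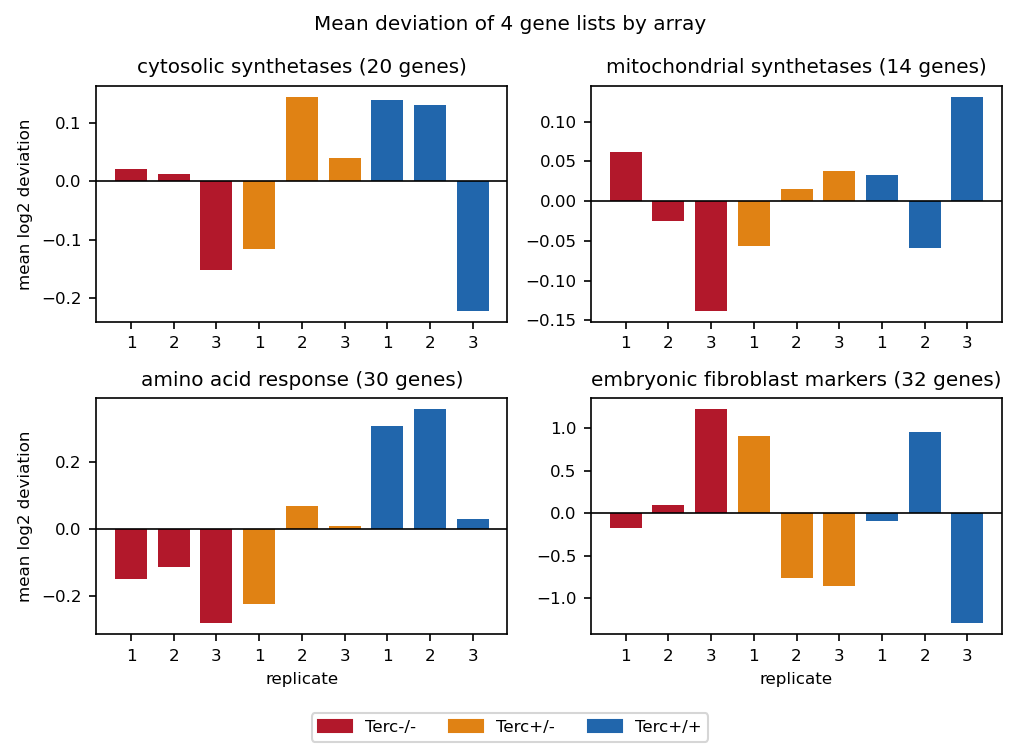
Mean deviation, in log2 units, of 4 gene lists on each array from the 9-array mean of each gene, with a bar per array and its own axis in each panel. Terc+/+ replicate 3 was the lowest array for the cytosolic synthetases (-0.22) and the fibroblast markers (-1.30), and the Terc-/- arrays were all below 0 for the amino acid response.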

How the data were processed

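Bead-array expression was measured in 9 ntESC samples, 3 for each Terc genotype. The authors deposited 1 value for each probe and array, taken here as log2. The scale and a quantile normalization were inferred from the values, whose array medians were all 5.94. Near-equal medians alone do not show which normalization was used. The software, background correction and genome build are not given in the sources used here. Another deposited table, of raw signals and detection p-values, holds 18 columns that name no sample and was not used. Array number limits the precision (median SE 0.11).

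Probes were named from the platform annotation: 23141 of 25697 had 1 gene symbol, 0 several and 2556 none. All 34 synthetases matched RefSeq by Entrez identifier. Genes with several probes took the probe with the highest mean; 13 synthetases had several, and 7 of these had 1 sign over all probes in Terc-/- against Terc+/+. The exceptions were Farsb, Iars, Pars2, Vars, Wars and Wars2.

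All 9 arrays were fitted together in R 4.3.3 by limma 3.58.1 (functions lmFit, contrasts.fit and eBayes; two-sided; 6 residual and 2.03 prior degrees of freedom), with Benjamini-Hochberg adjustment over 18666 features in each comparison and a threshold of 0.05. The fit was tested on simulated data. Array-by-array values were given, by rule, for synthetases with an unadjusted p under 0.05 in any comparison and for the brightest and dimmest probe of each compartment; from other lists, the 3 smallest p-values and a few fixed regulators were named. Members and lists were chosen with earlier results of these data known. Alternatives were the mean of probes, a mean above 6, only both genotypes' arrays, trend and robust variance, array weights, cyclic loess, the fibroblast score, the replicate number as a block and leaving out each array.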

Additional observations from a re-analysis of the deposited data

How the results depend on the processing

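Leaving out single arrays gave ranges of 0 to 287 called features and 0 to 1 called synthetases in Terc-/- against Terc+/+ and of 0 to 28 and 0 to 0 in Terc+/- against Terc+/+, with the highest counts without Terc+/+ replicate 3 and all counts 0 between Terc-/- and Terc+/-. Synthetases at an unadjusted p under 0.05 ranged from 1 to 8 of 34 in Terc-/- against Terc+/+, from 0 to 6 in Terc+/- against Terc+/+ and from 0 to 1 between Terc-/- and Terc+/-. The shares of all features at that p ranged from 7.33% to 15.6%, from 5.9% to 13.8% and from 1.18% to 3.58% in these comparisons. In that order, cytosolic medians ranged from -0.22 to -0.043, -0.11 to 0.060 and -0.12 to -0.016, and mitochondrial medians from -0.22 to -0.041, -0.088 to 0.024 and -0.11 to 0.00051. Differences of Terc-/- from Terc+/+ ranged from -0.19 to 0.12 for Hars and -0.027 to 0.032 for Hars2; in Terc+/- against Terc+/+ from -0.19 to 0.12 for Hars, -0.036 to 0.038 for Hars2 and -0.22 to 0.00022 for Gars; and in Terc-/- against Terc+/- from -0.049 to 0.060 for Hars, -0.040 to 0.034 for Hars2, -0.13 to 0.055 for Rars2 and -0.13 to 0.064 for Fars2.

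Called features in Terc-/- against Terc+/+ numbered 5 with the mean of all probes, 31 with cyclic loess, 135 with the fibroblast score, 2999 with array quality weights, and 0 among features with a mean above 6, with only the arrays of both genotypes and with trend and robust variance. In Terc+/- against Terc+/+ they numbered 166 with the fibroblast score and 643 with array weights. Array weights ran from 0.21 for Terc+/+ replicate 3 to 7.01 for Terc+/+ replicate 1. With them 9 synthetases were called in Terc-/- against Terc+/+. Rars2 (0.45) and Mars2 (0.32) were higher, and Sars (-0.52), Gars (-0.36), Cars, Mars1, Qars, Aars2 and Pars2 lower. In Terc+/- against Terc+/+, 1 was called, Rars2 (0.44). Synthetases at an unadjusted p under 0.05 in Terc-/- against Terc+/+ numbered 1 with a mean above 6 and 1 with trend and robust variance. Cyclic loess gave 5, with 2 higher and 3 lower, beside 1020 features higher and 1020 lower of 18666. Array weights gave 17, with 3 higher and 14 lower, beside 3145 features higher and 2895 lower. In Terc+/- against Terc+/+, synthetases at that p numbered 0 among features with a mean above 6 and with trend and robust variance. The fibroblast score gave 4, with 3 higher and 1 lower (1290 and 1216 features). Array weights gave 8, with 2 higher and 6 lower (2242 and 1846 features). In Terc-/- against Terc+/- the fibroblast score gave 1, higher, beside 330 features higher and 259 lower. For a mean above 6 and for trend and robust variance, the share of all features at that p was not computed. The mitochondrial median of Terc-/- against Terc+/+ was -0.038 with the fibroblast score.

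Signs turned for values near 0. For Terc-/- against Terc+/+, Hars was 0.14 with array weights, and Hars2 0.0013 with cyclic loess and 0.011 with the fibroblast score. For Terc+/- against Terc+/+, Hars was 0.089 with array weights and Hars2 0.0036 with cyclic loess. For Terc-/- against Terc+/-, Rars2 was 0.020 with the mean of probes, 0.013 with array weights and 0.0062 with cyclic loess; Fars2 0.014 with cyclic loess and 0.019 with the fibroblast score; Hars 0.052 with array weights, 0.011 with cyclic loess and 0.085 with the fibroblast score; and Hars2 0.013 with the fibroblast score. The cause of these shifts was not tested. Rars2 stayed higher and Sars lower in Terc-/- than in Terc+/+ under all alternatives run.

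Same-numbered samples had no common direction of deviation (correlations from -0.60 to 0.45), and the main fit did not pair them. With 3 arrays per genotype, these correlations cannot exclude processing shared by number. With the replicate block, 0 features were called in Terc-/- against Terc+/+, and synthetases at an unadjusted p under 0.05 numbered 1, Sars, in that comparison and 0 in Terc+/- against Terc+/+. The share of all features at that p was not computed for the block. Raw signals with another background correction, and the chip as a block, were not run because the raw columns name no sample. Precision was limited by 3 arrays per genotype and, for Hars, Hars2, Nars2, Yars2 and Eif2ak4, by signals close to the lowest values.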
